A study of Danio rerio with 4 samples.

Results

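The genes described here lie on zebrafish chromosome 5 within about 10 Mb of tbx1, on either side of it. They were chosen from 32538 loci of the deposited table by position (locus start from 6.9 to 27 Mb of the Zv9 build), a span of at least 300 bp, a usable estimate in all 4 libraries and a mean level of at least 1 FPKM (fragments per kilobase of transcript, scaled to the library's mapped fragments). Of 427 loci in that window, 223 were below the minimum level, 5 had no usable estimate in some library, 3 of the others were too short, and 11 were left out by name, tbx1 among them, which left 185. The mean level over all 4 libraries took part in the choice and is given only as a description. The difference between genotypes was not a criterion, but a gene near the minimum could pass it through its higher group alone. The window itself was drawn with earlier results of these data known.

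tbx1 encodes a T-box transcription factor of the pharynx and the heart field, and loss of 1 copy of its human counterpart is held to cause many features of DiGeorge syndrome. A mutation kept in a fish stock is inherited together with the DNA beside it. Homozygous embryos therefore tend to share alleles of neighbouring genes as well, over a distance set by recombination, and such an allele can change the RNA level of its own gene. In a comparison of mutants with controls, an effect of the missing factor and an effect of alleles carried along with the mutation cannot be told apart.

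RNA came from embryos at 6 somites, 12 h after fertilization, in 2 libraries of wild-type controls and 2 of tbx1 mutants that carry vgo (van gogh), an allele described as null in the labels. Genotyping used the end of the tail with some yolk, and polyadenylated RNA of the remaining embryo was sequenced in paired ends. The labels do not say whether controls and mutants came from the same parents or how many embryos went into a library, so each p-value reflects no more than how these 4 libraries vary, which may be technical. The smallest p that an exact permutation test allows with 2 libraries in each group is 0.333. Tests therefore come from limma, which pools the spread over all genes tested.

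The targeted gene had 9.08 and 9.14 FPKM in controls and 4.91 and 4.52 FPKM in mutants (log2 difference -0.88, adjusted p = 0.227 in limma). Read totals were not given. Relative depth was inferred from the most frequent ratio of each library to control 1 among loci of very low level. This assumes that such loci mostly hold equal read counts. With control 1 set to 1, it came to 0.840 for control 2, 0.824 for mutant 1 and 0.725 for mutant 2. Summed markers of the trimmed tissues overlapped between genotypes: the tailbud list (9 of 12 markers at 1 FPKM or more) came to 239 and 299 FPKM in controls and 234 and 279 FPKM in mutants. The yolk syncytial list (10 of 14 markers found with a usable estimate, 9 at 1 FPKM or more) came to 9311 and 7968 FPKM against 8592 and 7273 FPKM. Among 8 other lists, both mutants lay below both controls for skeletal muscle (361 and 379 against 353 and 334 FPKM) and endoderm (507 and 503 against 475 and 497 FPKM). No marker found in the table was at 0 in all libraries, and the part of tissue make-up in the results below was not tested.

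The 185 genes covered a wide range of levels, from a mean of 1.02 FPKM for ssh1a, a phosphatase gene of actin turnover, to 1336 FPKM for zgc:158409, whose current symbol is hmgn7. The median of the means was 6.61 FPKM. After zgc:158409 the highest means belonged to h2afv (699.7 FPKM), which encodes a histone H2A variant, and to ewsr1b (375 FPKM) and nono (369 FPKM), which encode RNA-binding proteins. They were followed by prps1a (298 FPKM), an enzyme gene of nucleotide synthesis, and xbp1 (262 FPKM), a transcription factor gene of the secretory pathway. The log2 differences between genotypes in these 6 genes ran from -0.06 for prps1a to 0.04 for xbp1. For example, ewsr1b had 359.9 and 382 FPKM in controls and 361 and 396 FPKM in mutants, so the groups overlapped. At the lower end, rasl10a (0.971 FPKM) and nos1 (0.972 FPKM) just missed the minimum, whereas ssh1a (1.02 FPKM) and si:dkey-98f17.5 (1.07 FPKM) just passed it.

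**Figure D1:**
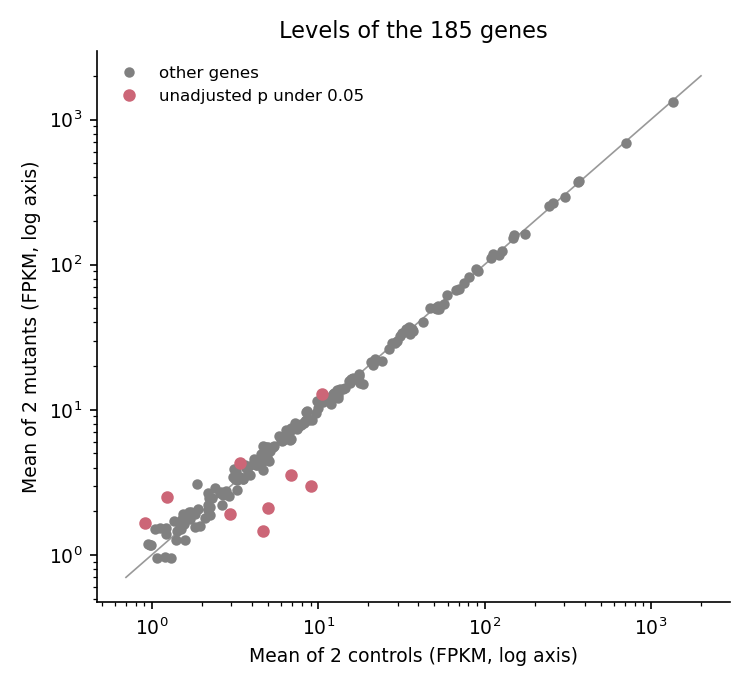
Mean level of the 185 genes in the 2 control libraries (x axis) and in the 2 mutant libraries (y axis), both in FPKM on log axes. The grey line marks equal levels and red points are the 9 genes with an unadjusted limma p under 0.05; most grey points lie on or near the line, and the red points farthest below it have control means under 10 FPKM.

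Most genes around tbx1 had nearly the same RNA level in mutants and controls. On the log2(FPKM + 0.5) scale, 173 of the 185 differences lay within 0.3, and the median absolute difference was 0.07, as it was over all 13448 genes tested (0.07). The median absolute difference between the 2 controls was 0.13 for the same 185 genes, and that between the 2 mutants was 0.11. These set single libraries against each other, whereas the genotype difference is between means of 2 libraries, which vary less. Mutant values were lower on average for 80 genes (43.2%, against 42.8% of all genes tested) and higher for 105 (56.8%, against 57.2%).

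None of the 185 passed an adjusted p of 0.05 in limma, where 0.0669% of all genes tested passed (0.0372% lower and 0.0297% higher in the mutants). At an unadjusted p under 0.05, 9 genes differed (4.86%, against 1.99% of all genes tested). Of these, 5 were lower in the mutants (2.70%, against 0.907%) and 4 were higher (2.16%, against 1.08%). Both mutant values lay below both control values in 26 genes (14.1%, against 9.14% of all genes tested) and above them in 31 (16.8%, against 15.6%). Both counts include genes whose lower group had a mean under the minimum level. Examples are usp30 and dao.3 among the lower genes, and FP102192.1 and rictora among the higher. An absolute log2 difference over 0.3 was found in 12 genes (6.49%, against 5.67%), and one of at least 1 in 3 genes (1.62%, against 1.24%). The shares over all genes include loci under 300 bp, which the window genes do not. Among the 12728 genes that met the same criteria of level, span and name, the share was 4.44% for differences over 0.3 and 0.204% for differences of at least 1. On the other chromosomes alone these shares were 4.11% and 0.125%, and on chromosome 5 outside the window 11% and 1.46%. In RNA of embryos without the end of the tail and some yolk, fewer cells of a type and less RNA per cell cannot be told apart.

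**Figure D2:**
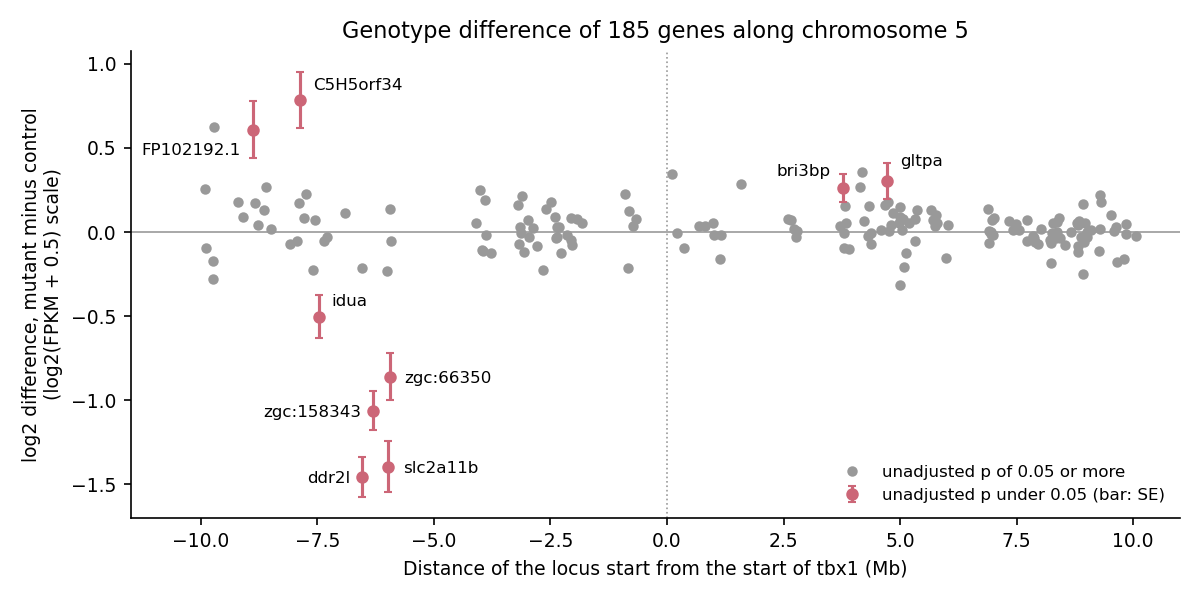
Log2 difference between genotypes (y axis, mutant minus control, log2(FPKM + 0.5) scale) of each of the 185 genes against the distance of its start from that of tbx1 (x axis, Mb). Red points with SE bars are the 9 genes with an unadjusted limma p under 0.05; the 4 lowest, from ddr2l at -1.46 to zgc:66350 at -0.86, lie together 5.95 to 6.53 Mb before tbx1.

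The 4 lowest log2 differences belonged to neighbours that lie within 0.591 Mb of each other, about 6 Mb before tbx1: ddr2l, zgc:158343, slc2a11b and zgc:66350. ddr2l (ENSDARG00000004722, chromosome 5 from 10372532 to 10536446) is named as a relative of the discoidin domain receptors, receptor tyrosine kinases that bind collagen. It had 8.75 and 9.28 FPKM in controls and 3.23 and 2.72 FPKM in mutants. Both mutant libraries were far below both controls, with means of 2.98 ± 0.365 against 9.01 ± 0.375 FPKM (SD, n = 2 each), a 3.03-fold difference. The log2 difference was -1.46 (SE 0.117, 95% interval -1.76 to -1.15). Its adjusted p in limma was 0.0884, with a range of 0.00196 to 0.787 over the alternatives run. With loci under 300 bp left out of the fit, the adjusted p was 0.0397 in limma (0.053% of genes tested passed there, and 0.0454% as lower), and with robust empirical Bayes it was 0.0324. The authors' 95% intervals spanned 8.34 to 9.78 FPKM in controls and 2.46 to 3.50 FPKM in mutants, with a gap between them.

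slc2a11b (ENSDARG00000063288, from 10922205 to 10953785) belongs to the family of facilitative sugar transporters. It had 4.24 and 5.11 FPKM in controls and 1.60 and 1.33 FPKM in mutants. The mutant libraries again lay well below the controls, with a 3.19-fold difference of means (1.47 ± 0.193 against 4.67 ± 0.617 FPKM, SD, n = 2 each). The log2 difference was -1.39 (SE 0.152, 95% interval -1.79 to -0.996), with an unadjusted limma p of 3.67e-04 and an adjusted p of 0.248 (0.00940 to 0.974 over the alternatives).

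zgc:158343 (ENSDARG00000059679, from 10606823 to 10607450) has no descriptive name in the table, and its locus spans only 627 bp. It had 5.25 and 4.68 FPKM in controls and 2.16 and 2.07 FPKM in mutants, a 2.35-fold difference of means with no overlap. The log2 difference was -1.06 (SE 0.116, 95% interval -1.37 to -0.76), and the limma p was 3.69e-04 before and 0.248 after adjustment (0.0106 to 0.950 over the alternatives).

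zgc:66350 (ENSDARG00000095464, from 10954244 to 10963943) has the current symbol gstt2, a glutathione transferase of the theta class, which joins glutathione to reactive compounds. It had 6.44 and 7.22 FPKM in controls and 3.16 and 3.95 FPKM in mutants. The groups did not overlap and the means differed 1.92-fold (6.83 ± 0.552 against 3.55 ± 0.558 FPKM, SD, n = 2 each). The log2 difference was -0.86 (SE 0.139, 95% interval -1.22 to -0.49), with limma p-values of 0.00206 before and 0.866 after adjustment (0.0186 to 1 over the alternatives). Its locus shares 363 bp with that of chek2, and the table gives no strand, so reads over the shared bases may count for either gene.

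The other genes from pheta1 to HSCB, which enclose these 4, differed less. chek2, which encodes a checkpoint kinase of the response to DNA breaks, had 10.28 and 11.90 FPKM in controls and 11.94 and 12.50 FPKM in mutants (log2 difference 0.14, SE 0.101). Both of its mutant values were thus above both controls, by a small margin. WDR31, a gene for a protein with WD repeats, had 1.64 and 1.52 FPKM against 1.19 and 1.36 FPKM, so that both mutant values were lower (log2 difference -0.23, SE 0.150). ENSDARG00000067546, whose current symbol is pheta1, had a log2 difference of -0.21, and HSCB, a co-chaperone gene of iron-sulphur cluster assembly, one of -0.05. Strongly lower genes and genes with little difference thus stood side by side: slc2a11b and zgc:66350 are followed directly by chek2. Of the 8 genes of this stretch, 4 had an unadjusted limma p under 0.05 (50%, against 1.99% of all genes tested). The stretch was drawn around these 4, so the count follows from that choice. The median log2 difference of -0.54 lies between zgc:66350 (-0.86) and WDR31 (-0.23), and no gene is near it. The bounds of the stretch were set after the values had been seen.

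**Figure D3:**
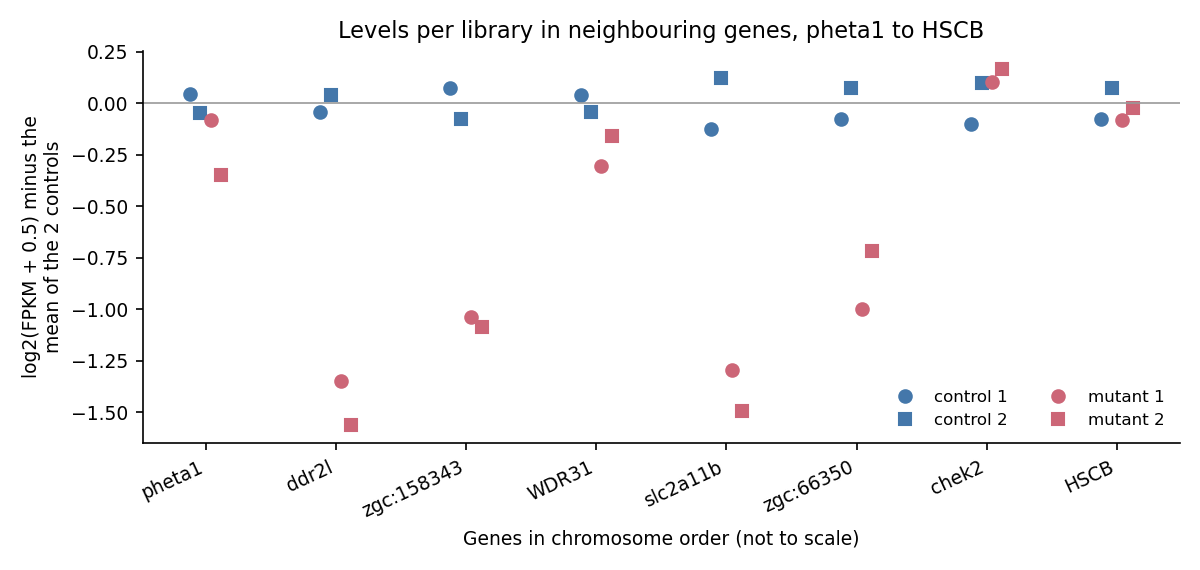
Level in each library of the 8 genes from pheta1 to HSCB, in chromosome order, as log2(FPKM + 0.5) minus the mean of the 2 controls (y axis); blue marks are controls and red marks are mutants. ddr2l, zgc:158343, slc2a11b and zgc:66350 have both mutant libraries well below the controls, whereas those of chek2 and HSCB lie near the controls.

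Upstream of that stretch, 3 further genes had an unadjusted limma p under 0.05, in both directions. C5H5orf34 (ENSDARG00000092445, from 9040530 to 9061707, 7.87 Mb before tbx1) had 1.22 and 1.26 FPKM in controls and 2.86 and 2.18 FPKM in mutants. It had the largest positive difference of the 185 genes, 2.03-fold in means and 0.78 on the log2 scale (SE 0.167, 95% interval 0.35 to 1.22). The limma p was 0.0064 before and 0.999954 after adjustment. paip1, its neighbour, which encodes a partner of the poly(A)-binding protein in translation, had 6.79 and 6.08 FPKM in controls and 7.41 and 7.20 FPKM in mutants (log2 difference 0.17, SE 0.0969).

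idua (ENSDARG00000062904, from 9440922 to 9462855) encodes alpha-L-iduronidase, a lysosomal enzyme that breaks down glycosaminoglycans. It had 3.10 and 2.77 FPKM in controls and 1.85 and 1.99 FPKM in mutants. The mutant values were 1.53-fold lower in means without overlap (log2 difference -0.50, SE 0.127, 95% interval -0.84 to -0.17), and the limma p was 0.0123 before adjustment. A 5S_rRNA locus lies within idua, and none of its 4 values fell inside its own deposited interval. FP102192.1, an unnamed gene model (ENSDARG00000089782, from 8033741 to 8035457), had 0.891 and 0.933 FPKM in controls and 1.48 and 1.84 FPKM in mutants. Its log2 difference was 0.61 (SE 0.167, 95% interval 0.17 to 1.05), with a limma p of 0.0168 before adjustment, at a level where the pseudocount of 0.5 understates the change. The control mean of FP102192.1 (0.912 FPKM) was under the minimum of 1 FPKM. It thus entered the set only through the mutants (1.66 FPKM), which limits every count of higher genes that includes it.

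After tbx1, both genes with an unadjusted limma p under 0.05 were slightly higher in the mutants. bri3bp (ENSDARG00000010108, from 20688716 to 20694863, 3.78 Mb after tbx1) had 11.01 and 10.2 FPKM in controls and 13.0 and 12.5 FPKM in mutants. The difference was 1.21-fold in means and 0.26 on the log2 scale (SE 0.0837, 95% interval 0.04 to 0.48), with a limma p of 0.0291 before adjustment. gltpa (ENSDARG00000061921, from 21634155 to 21645094) encodes a glycolipid transfer protein. It had 3.53 and 3.27 FPKM in controls and 4.49 and 4.15 FPKM in mutants, a 1.27-fold difference without overlap (log2 difference 0.30, SE 0.108, 95% interval 0.02 to 0.59). Its unadjusted limma p was 0.0406, and as in idua none of its 4 values fell inside its own deposited interval. For idua, FP102192.1, bri3bp and gltpa too, the limma p after adjustment over all genes was 0.999954.

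**Figure D4:**
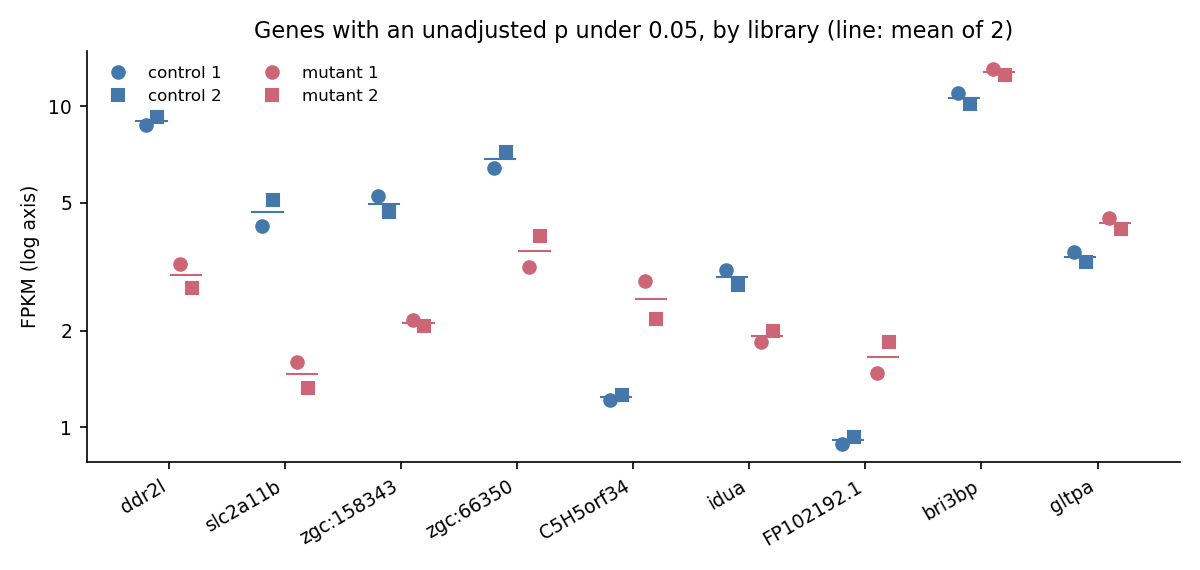
FPKM in each of the 4 libraries (y axis, log axis) of the 9 genes with an unadjusted limma p under 0.05; blue marks are controls, red marks are mutants and short lines are means of 2 libraries. In every gene shown the control and mutant values do not overlap, with the widest gaps in ddr2l and slc2a11b.

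The authors' 95% intervals give a second view of precision. Relative to the value, their median half-width over the 185 genes was 8.90% in control 1, 9.89% in control 2, 9.86% in mutant 1 and 10.3% in mutant 2. For 6 genes the intervals of both controls lay apart from those of both mutants: C5H5orf34, idua, ddr2l, zgc:158343, slc2a11b and zgc:66350. All 6 are among the 9 genes with an unadjusted limma p under 0.05. The count was made for the 185 genes only, so no share over all genes stands beside it. In zgc:66350 only 3 of the 4 values lay inside their own interval, and in idua none did. However, 21.6% of the deposited values of the 185 genes lay outside their own interval, and all 4 values lay inside for 140 genes, so these bounds were used only as a description.

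Of the 3 genes of this set closest to tbx1 on either side, TXNRD2 (1 of 2) had a log2 difference over 0.3. The others lay between -0.09 and 0.12. Loci left out of the set are not counted here. On the side before it, SEMA4C, a semaphorin gene of cell guidance, had 3.82 and 3.74 FPKM in controls and 4.02 and 4.005 FPKM in mutants (log2 difference 0.08). CDCA2, named for a regulator of chromatin in cell division, had 21.4 and 20.1 FPKM against 20.9 and 21.8 FPKM (0.04). kat6a, a histone acetyltransferase gene, had 7.74 and 5.98 FPKM against 7.66 and 7.27 FPKM (0.12). In CDCA2 and kat6a the groups overlapped, while the mutant values of SEMA4C were both slightly higher.

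After tbx1, the nearest gene of the set was TXNRD2 (1 of 2), named for a mitochondrial thioredoxin reductase. TXNRD2 (1 of 2) starts 0.109 Mb from tbx1, and a neighbour left out by name starts nearer. It had 1.36 and 0.886 FPKM in controls and 1.57 and 1.51 FPKM in mutants. Both mutant values were higher, but the controls were far apart, and the log2 difference of 0.34 had a 95% interval of -0.19 to 0.87. Its locus overlaps that of txnrd2, which has no usable estimate in some library. pebp1, an inhibitor gene of Raf kinase signalling, had 12.4 and 12.3 FPKM in controls and 12.6 and 12.0 FPKM in mutants, so the groups overlapped (log2 difference -0.00). suds3, a gene for a subunit of the Sin3 histone deacetylase complex, had 32.1 and 39.1 FPKM against 30.8 and 35.7 FPKM, also with overlap (-0.09).

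The differences past an unadjusted p of 0.05 were unevenly spread over the window. Before the position of 11 Mb, 7 of 33 genes passed (21.2%), 21 had groups that did not overlap (63.6%), and the median absolute log2 difference was 0.17. From there on, 2 of 152 genes passed (1.32%), 36 had groups that did not overlap (23.7%), and the median was 0.06. Both shares of the larger set are near those of all genes tested (1.99% and 24.8%). Within 5 Mb of tbx1, 2 of 76 genes passed (2.63%), both higher in the mutants. In 2 Mb steps of distance, no gene passed among the 28 lying 2 to 4 Mb before tbx1, the 7 in the last 2 Mb before it and the 10 in the first 2 Mb after it. The same held for the 21 genes lying 6 to 8 Mb after tbx1, the 39 at 8 to 10 Mb and the 1 beyond. These sets are small beside a share of 1.99% over all genes tested, so an empty step is not particular to the surroundings of tbx1. The split at 11 Mb was chosen after the values had been seen and was given no test.

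Level varied along with these counts. Of the 76 genes with a mean under 5 FPKM, 6 had an unadjusted limma p under 0.05 (7.89%) and 10 an absolute log2 difference over 0.3 (13.2%). Over all genes of that level with the same criteria, these shares were 2.56% and 9.29%. Of the 109 genes at 5 FPKM or more, 3 passed (2.75%, against 1.42% of all such genes), and 2 differed by more than 0.3 (1.83%, against 1.57%), ddr2l and zgc:66350. The median of the means was 4.80 FPKM for the 33 genes before 11 Mb and 7.65 FPKM for the 152 after it. The part of level in the uneven spread was not tested. A long stretch without any of the 185 genes follows HSCB: the next one, nf2a, comes 1.82 Mb later, and the 12 loci between them had means of at most 0.243 FPKM.

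Chromosome 5 outside the window gave larger shares than most of the window did. Among 547 genes there that met the same criteria of level and span, 47 had an unadjusted limma p under 0.05 (8.59%), 28 of them lower in the mutants and 19 higher. In a stretch just after the window that ends at 40 Mb the share was 12.4% of 169 genes, and between 50 and 70 Mb it was 10.2% of 166. Before 6.9 Mb it was 7.27% of 55. On the other chromosomes it was 1.49% of 11996 genes, with 24.5% of genes not overlapping. These shares are descriptions, since the regions were compared with earlier results known. Just past the upper edge, anxa1a, a membrane-binding annexin gene, had 219.9 and 236.4 FPKM in controls and 86.8 and 97.4 FPKM in mutants (log2 difference -1.31). The last genes inside that edge, C5H9orf142 and C5H9orf41, had differences of -0.01 and -0.02, and MFSD3, just outside, one of -0.07. At the lower edge the first genes inside were CT955987.1 (0.25) and elac1 (-0.10), and the last outside were tnks1bp1 (0.25) and zgc:110796 (0.09).

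**Figure D5:**
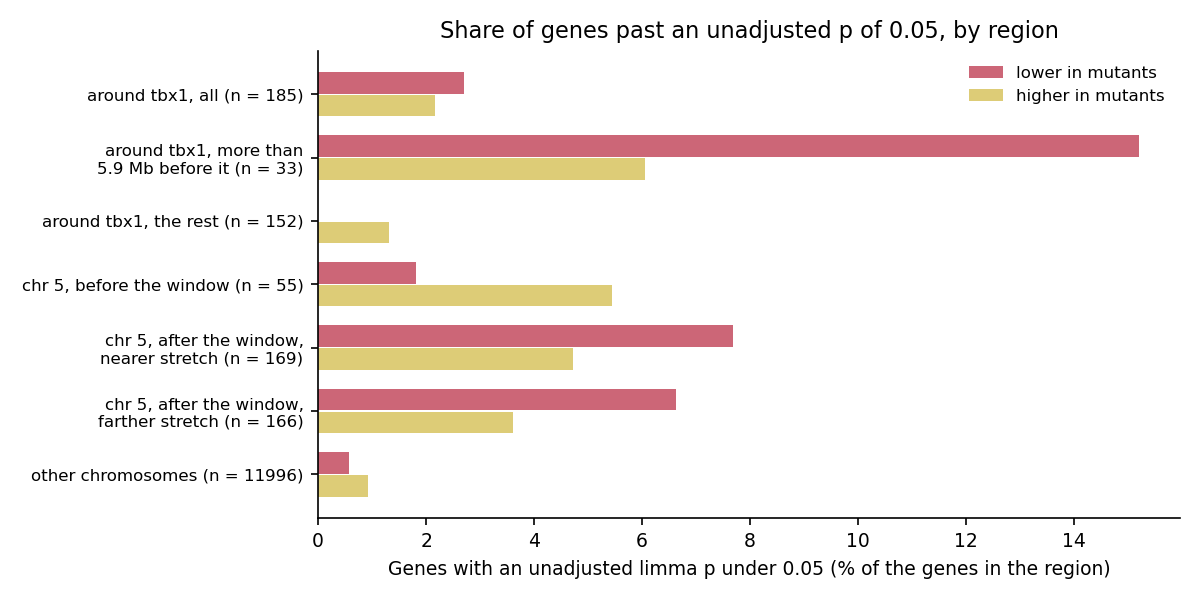
Percentage of genes with an unadjusted limma p under 0.05 (x axis, bars from 0) in the window around tbx1, its parts before and after 11 Mb, other stretches of chromosome 5 and the other chromosomes; red bars are genes lower and yellow bars genes higher in the mutants. The 33 genes before 11 Mb have the longest bar, at 15.2% lower, and the 152 genes after it have no gene lower and 1.32% higher.

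Several genes of the window have human counterparts in, or next to, the region of human chromosome 22 that is deleted in DiGeorge syndrome. For 7 genes of the deleted region (hira, dgcr8, trmt2a, zdhhc8b, lztr1, AIFM3 and TXNRD2), none had an unadjusted limma p under 0.05. Since 1.99% of all genes tested passed, a set of 7 is too small for this to say anything about them. Their median log2 difference was 0.02, against 0.02 for all genes tested, with a range of -0.12 to 0.34. hira, a histone chaperone gene, had 16.8 and 15.3 FPKM in controls and 16.3 and 16.1 FPKM in mutants. dgcr8, a gene of microRNA processing, had 15.1 and 15.9 FPKM against 15.5 and 15.8 FPKM. In both genes the groups overlapped, and the log2 difference was 0.02.

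zdhhc8b, a palmitoyltransferase gene, had 5.95 and 6.21 FPKM in controls and 6.02 and 6.21 FPKM in mutants (log2 difference 0.01). trmt2a, a tRNA methyltransferase gene, had 9.12 and 10.6 FPKM against 10.9 and 12.1 FPKM. Both of its mutant values were above both controls, with a log2 difference of 0.22 (SE 0.111, 95% interval -0.07 to 0.51). Its neighbour si:ch211-106a19.2, whose current symbol ATP6V0A2 names a subunit of the vacuolar proton pump, had 8.55 and 8.69 FPKM in controls and 9.85 and 9.77 FPKM in mutants (0.18, SE 0.0778).

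The set next to the human deletion (7 genes, among them top3b, ypel1, ppil2, ydjc, ube2l3b and sdf2l1) also held no gene with an unadjusted limma p under 0.05. It is likewise too small beside the 1.99% of all genes tested. The median log2 difference of this set was 0.03. ypel1 had 1.92 and 1.97 FPKM in controls and 1.57 and 1.61 FPKM in mutants, with both mutant values lower (log2 difference -0.23, SE 0.130). Of all 14 genes, 2 were lower and 4 higher without overlap (42.9%, against 24.8% of all genes tested). Both sets were put together from general knowledge after the values had been seen.

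Sorted by what their products do, most groups of these genes had medians near 0. The counts given next stand against 1.99% of all genes tested with an unadjusted limma p under 0.05. Among 25 genes of chromatin, DNA replication and repair, none had an unadjusted limma p under 0.05; their median log2 difference was 0.02 and their range -0.09 to 0.27. The upper end was nipbla, a loader of cohesin, whose locus from 8302629 had 5.32 and 3.95 FPKM in controls and 5.97 and 5.28 FPKM in mutants. Its second locus, from 8268734, had a difference of 0.13, and both carry the same gene ID.

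Among 22 genes of signalling and development, ddr2l alone passed an unadjusted p of 0.05 (4.55%), and the median log2 difference was 0.05. fgf10b, which encodes a fibroblast growth factor ligand, had 2.49 and 2.30 FPKM in controls and 3.09 and 2.69 FPKM in mutants. Its mutant values were both higher (log2 difference 0.23, 95% interval -0.11 to 0.56). bmpr1ba, a receptor gene for bone morphogenetic proteins, had 22.9 and 20.0 FPKM against 22.7 and 18.3 FPKM, with overlap (-0.07). CT955987.1, whose current symbol SMAD4 names the shared mediator of TGF-beta and BMP signals, had both mutant values above the controls (2.27 and 2.07 against 2.78 and 2.58 FPKM, log2 difference 0.25, SE 0.124). sox19a, a SoxB1 factor gene of the neural plate, had 242 and 248 FPKM in controls and 247 and 263 FPKM in mutants (0.06). limk2, a kinase gene of actin turnover, differed by 0.07 on the log2 scale.

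Among 31 genes of metabolism and mitochondria, zgc:66350 and idua were lower and gltpa was higher at an unadjusted limma p under 0.05 (9.68% in all), and the median log2 difference was -0.01. atad1a, an ATPase gene that clears misplaced proteins from mitochondria, had 3.35 and 2.91 FPKM in controls and 4.10 and 3.76 FPKM in mutants. Its mutant values were both higher (log2 difference 0.29, 95% interval -0.03 to 0.61). slc25a15b, a mitochondrial ornithine carrier gene, had 4.80 and 4.55 FPKM against 3.60 and 4.11 FPKM, both mutant values being lower (-0.25, SE 0.112). pnpla7b, a lysophospholipase gene, had 23.4 and 25.2 FPKM against 22.2 and 21.3 FPKM (-0.16, SE 0.0768). agpat9l, a gene of glycerolipid synthesis, and nipsnap1, a gene for a mitochondrial protein, were also lower without overlap, at -0.23 and -0.12. pdha1a, the pyruvate dehydrogenase subunit gene, and acacb, the acetyl-CoA carboxylase gene, differed by 0.05 and 0.06.

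The tandem genes dao.1, dao.2 and dao.3 encode D-amino acid oxidases and had very different levels. dao.1 had 155 and 146 FPKM in controls and 165 and 153 FPKM in mutants. dao.2 had 3.89 and 2.64 FPKM against 4.02 and 2.59 FPKM, and dao.3 at 1.23 and 1.16 FPKM against 1.06 and 0.880 FPKM. Their log2 differences were 0.08, 0.01 and -0.21. The mutant mean of dao.3 (0.971 FPKM) was under the minimum level, so dao.3 entered the set only through the controls. Since the copies are alike, the split of reads between them is uncertain.

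Among 17 genes of RNA processing and translation, none had an unadjusted limma p under 0.05, with a median log2 difference of 0.02 and a range from -0.17 for MEX3C to 0.22 for trmt2a. snrnp27, a splicing factor gene, differed by 0.08. Among 17 genes of membrane transport and vesicle traffic, slc2a11b passed (5.88%), and the median was 0.01. ap3m2 and ap1b1, adaptor subunits of vesicle coats, had differences of -0.22 and 0.10. Among 12 genes of ubiquitin conjugation, none passed, and the median was -0.02. usp30, a deubiquitinase gene of mitochondria, had 1.25 and 1.35 FPKM in controls and 0.889 and 1.01 FPKM in mutants (-0.31, SE 0.160), and fbxo21, an F-box gene, differed by 0.25 with overlap. The mutant mean of usp30 (0.948 FPKM) was under the minimum level, so that gene entered the set only through the controls.

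The other 61 genes included 1 lower (zgc:158343) and 3 higher (C5H5orf34, FP102192.1 and bri3bp) at an unadjusted limma p under 0.05 (6.56% in all). A pair of unnamed models near the lower edge, shown here as CABZ01041961.2 and CABZ01041962.1, differed in opposite directions. CABZ01041961.2 had 2.39 and 1.35 FPKM in controls and 3.47 and 2.69 FPKM in mutants (log2 difference 0.62, SE 0.263). CABZ01041962.1 had 16.6 and 20.56 FPKM against 14.3 and 16.0 FPKM (-0.28, SE 0.132). tchp, a keratin-binding protein gene, had 3.61 and 3.65 FPKM against 4.08 and 4.28 FPKM (0.18, SE 0.0998). msna, which encodes the membrane linker moesin, differed by 0.08. rusc2, chosen after its values were seen, had both mutant values higher by a small margin (1.17 and 0.933 against 1.84 and 1.18 FPKM, 0.36, SE 0.227). These groups by role were also made after the values had been seen.

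Lists made by the start of the gene symbol, without regard to position, gave a like picture. By an unadjusted limma p under 0.05, the list of kinases, phosphatases and their regulators had 1 lower and 0 higher of 3 window genes, against 3 and 3 of 425 genes tested. Symbol starts miss other such genes of the window, among them chek2, bmpr1ba and ssh1a, and place limk2 with the cytoskeleton. None of these missed genes named here passed. Membrane transporters and channels had 1 lower and 0 higher of 6, against 4 and 2 of 359. Unnamed gene models had 2 lower and 2 higher of 30, against 31 and 48 of 2019. In the lists of transcription factors (3 window genes), cytoskeleton and adhesion (3), RNA processing (7), ubiquitin and protein turnover (9), vesicle traffic (4) and metabolic enzymes (4), no window gene passed. In this order, the lower and higher counts over all genes tested were 6 and 5 of 462, 4 and 3 of 290, and 0 and 0 of 336. For ubiquitin, vesicle traffic and metabolic enzymes they were 0 and 5 of 326, 2 and 3 of 420, and 5 and 6 of 359. Empty lists of this size therefore say little. No window gene of any of these lists passed an adjusted p of 0.05 in limma.

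Some of the 185 entries share a source. nipbla has 2 loci under 1 gene ID, so that the table holds 184 distinct IDs, and NIPBL (3 of 3) is a further entry of that family. mybbp1a and MYBBP1A (2 of 2) are likewise copies of 1 gene family. In all, 23 of the 185 have a locus that overlaps another, and for these, as for close copies, the authors' counting may have split reads between entries.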

How the data were processed

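Per the labels' protocols, polyadenylated RNA of zebrafish embryos was sequenced in paired ends. Cufflinks 2.1.1, Cuffdiff 2.0.2 and TopHat2 2.0.8 appear in the submitters' processing notes, with Zv9 (danRer7) as the build, but without an order of use. The deposited table holds the authors' FPKM of each gene in each library, 95% bounds, a status and a Zv9 locus; per the file headers, the value columns carry the title RPKM. Values were used as log2(FPKM + 0.5), which understates the change of low genes. Depth is known only in relative terms, and whole reads could not be recovered.

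All 13448 genes with status OK and a mean of at least 1 FPKM were fitted with limma 3.58.1 in R 4.3.3 (two-sided, genotype as the only term, variances moderated along a mean trend, 4.66 degrees of freedom, 2.66 of them prior), with Benjamini-Hochberg adjustment over all. The fit was tested on simulated data. Figures were drawn with matplotlib 3.10.9.

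The genes, lists, splits and tests were chosen with earlier results of these data known. Names beginning with any of 15 starts (among them ribosomal and mitochondrial subunits), as well as tbx1 and 3 other genes named singly, were left out. The starts were read with their letter case, so CDCA2 was kept. Current symbols were found for 162 of the 185 genes. Genes were named by rule: up to 12 per direction of lowest p without overlap, the 3 nearest to tbx1 on each side, the 6 highest, the 2 of lowest p per list, the 3 largest differences per direction, and those at each edge; others were chosen after their values were seen, among them the DiGeorge counterparts, the dao copies and the neighbours of ddr2l. A few genes set by this rule are not reported here. Settings varied were the pseudocount (0.1 and 1), the minimum (none and 5 FPKM), quantile and median-ratio scaling, the replicate number as a block, each library left out, no trend, robust empirical Bayes, loci under 300 bp left out, a threshold of 0.10 and a window of 5 Mb on each side.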

Additional observations from a re-analysis of the deposited data

How the results depend on the processing

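ddr2l, slc2a11b, zgc:158343 and zgc:66350 kept their direction in every alternative that tested them. The count of genes lower at an adjusted p under 0.05 in limma went from 0 to 1 (ddr2l) with robust empirical Bayes, with loci under 300 bp left out and at a threshold of 0.10. With those loci left out and the replicate block, it was 4 (ddr2l, slc2a11b, zgc:158343 and zgc:66350, limma adjusted p 0.00196 to 0.0186), where 0.114% of all genes were called lower; 9 genes were then lower and 9 higher at an unadjusted p, which 6.57% of all genes passed (1.99% in the fit reported), and tbx1 passed (-0.88, limma adjusted p 0.00976). With the replicate block alone, 7 were lower and 7 higher, and 4.54% of all genes passed. The replicate numbers are not said to pair the libraries: deviations of same-numbered libraries correlated at 0.347 over 13202 genes, and the cause was not tested.

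With no minimum on the mean, 7 genes were higher at an unadjusted p, and 3.98% of all loci passed. That share counts both directions, so it cannot be set directly against the 7 higher genes. With a mean of at least 5 FPKM, which leaves 109 genes, 2 were lower and 1 higher (1.72% of all genes passed). No overlap was found in 26 (23.9%, against 22.1% of all genes of that level with the same criteria). Differences over 0.3 were found in 2 (1.83%, against 1.57%). Within 5 Mb of tbx1, which leaves 76 genes, 0 were lower and 2 higher (2.63%, against 1.85% of all genes with the same criteria). Of these 76, 19 had no overlap (25%, against 25.1%) and 3 differed by more than 0.3 (3.95%, against 4.44%). With each library left out in turn, 4 to 6 were lower and 2 to 6 higher at an unadjusted p, 110 to 132 had no overlap (fewer samples overlap less often) and 13 to 28 differed by more than 0.3; without control 2 or without mutant 1, 2 were higher, and 26 differed by more than 0.3 without control 1 and 28 without mutant 2. No conclusion is drawn from the counts by p or by overlap in these fits. A group then held a lone library, and fewer samples overlap less often. The median absolute difference ran from 0.08 to 0.11.

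Of 47 named genes, 10 changed sign, all of them with small differences. With a library left out, log2 differences ran from -0.0499 to 0.30 for kat6a, -0.00733 to 0.0821 for CDCA2, -0.0332 to 0.0260 for pebp1, -0.23 to 0.0458 for suds3, -0.0328 to 0.11 for xbp1, -0.0254 to 0.15 for acacb, -0.00377 to 0.17 for msna, -0.0305 to 0.0698 for nono, -0.10 to 0.0357 for zgc:158409 and -0.0387 to 0.0957 for ewsr1b. Under median-ratio scaling nono was at -0.000259. The range was also wide for CABZ01041961.2 (0.30 to 0.95), CABZ01041962.1 (-0.43 to -0.13), agpat9l (-0.38 to -0.07), fbxo21 (0.03 to 0.48) and TXNRD2 (1 of 2) (0.13 to 0.56). Of the 9 genes with an unadjusted p under 0.05, 6 had means under 5 FPKM; the part of depth was not tested.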

Other observations

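Among loci of the window that were not part of the 185 genes, 4 are named here because of their values, which were seen first. mrpl41, a mitochondrial ribosomal protein gene left out by its name, had 34.5 and 33.0 FPKM in controls and 23.2 and 21.2 FPKM in mutants, without overlap. Its log2 difference was -0.59, with limma p-values of 8.90e-04 before and 0.443 after adjustment. It starts at 26741828, next to pnpla7b.

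The other loci were below the minimum level. ugt2b6 (ENSDARG00000058841), named for an enzyme family that joins glucuronic acid to small molecules, had 0.253 and 0.0834 FPKM in controls and 1.41 and 1.48 FPKM in mutants. BX546499.1 had 0.863 and 0.777 FPKM against 0.318 and 0.277 FPKM. RICTOR (2 of 3), named for a subunit of a TOR kinase complex, had 0.636 and 0.579 FPKM against 0.334 and 0.220 FPKM. Control and mutant values did not overlap in any of these 3 loci.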
